A study of Mus musculus with 6 samples.

Results

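The Arp2/3 complex is the machine that starts actin branches, and its genes were followed here in serum-starved mouse fibroblasts labelled wild type or knockout for the gene Rai16. The 10 members are the genes of the subunits and their paralogues: Actr2, Actr3, Actr3b, Arpc1a, Arpc1b, Arpc2, Arpc3, Arpc4, Arpc5 and Arpc5l. They were matched by symbol, and all 10 were found among the 16000 genes of the deposited tables and among the 11972 genes tested. The family was chosen on the knockout and wild-type values of Actr3b, whose near loss in the knockout libraries was already known. The other 9 entered as the remaining subunits, with the same comparison already run. Differences of members between the groups are therefore given as a description, without p-values.

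The cells were NIH3T3, an established line of mouse embryonic fibroblasts. All cultures were under serum starvation, 3 libraries with the genotype WT and 3 with the genotype Rai16 KO. The labels name no clone, allele or method for the knockout and do not say whether replicates were separate cultures, so errors and p-values here cover only library-to-library spread, possibly technical. RNA was measured by stranded sequencing of polyadenylated transcripts, with 16741607 to 18368760 counts per library.

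Actin filaments branch when the Arp2/3 complex binds the side of an existing filament and starts a daughter filament from it. The actin-related proteins Arp2 and Arp3 stand in for the first units of the new filament, and ARPC1 to ARPC5 hold them and the mother filament together. Nucleation promoting factors of the WASP and WAVE families switch the complex on, and in fibroblasts the branched network it makes pushes out the lamellipodium. In mammals Arp3, ARPC1 and ARPC5 are each encoded by 2 genes, whose products occupy the same place in the complex: Actr3 and Actr3b, Arpc1a and Arpc1b, Arpc5 and Arpc5l.

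Facts of the whole series bear on the members as follows. The targeted gene, listed as Fam160b2, had 440, 375 and 411 counts in wild-type replicates 1, 2 and 3 and 410, 394 and 390 in knockout replicates 1, 2 and 3, a log2 fold change of −0.12 ± 0.075 (SE; edgeR adjusted p = 0.184). Whole-gene counts would not show a small lesion, so they do not check the genotype labels. Fibroblast markers were abundant, with 10 of 10 listed genes tested and a summed level of 27064 to 27625 CPM (counts scaled to a common library total) in wild type and 21298 to 24077 CPM in knockout. The summed epithelial, leukocyte and endothelial lists stayed at or under 25.5 CPM in each library. Neural markers, of which Map2 was tested, summed to 12.0 to 14.7 CPM in wild type and 1.43 to 2.50 CPM in knockout. Knockout replicate 2 stood apart on the second principal component (5.90% of the variance, score 23.3 against −12.0 and −12.2). That library alone held counts of the muscle gene Ckm (405, against 0 in each of the other 5), and its muscle list summed to 26.9 CPM.

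The Arp3 place showed the largest difference of the complex. Actr3b, the minor Arp3 gene, had 1720, 1548 and 1512 raw counts in wild-type replicates 1, 2 and 3. It had 4, 4 and 3 in knockout replicates 1, 2 and 3. After TMM scaling this was 99.4, 92.8 and 86.9 CPM in wild type and 0.217, 0.218 and 0.169 CPM in knockout. All knockout libraries were thus close to 0 and far below all wild-type libraries. The summed counts were 4780 against 11, a depth-scaled ratio of wild type to knockout of 461 (exact 95% counting interval 258 to 924, which covers counting error only). In bulk RNA, fewer cells with a transcript and less of it per cell cannot be told apart.

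Actr3, the major Arp3 gene, was not higher where Actr3b was nearly absent. It stood at 257, 240 and 254 CPM in wild-type replicates 1, 2 and 3 and at 175, 184 and 184 CPM in knockout replicates 1, 2 and 3. The groups did not overlap, and the log2 fold change was −0.47 ± 0.057 (SE), or 0.722 times the wild-type level. Reads of Actr3 could be shared with a copy, since 26.3% of the 50-base words of its GENCODE transcripts also occur in transcripts of other genes, mostly the pseudogene Gm8822 (Actr3-ps). Of the 2421 such words of Actr3b, 0 occur in transcripts of another gene, and 0 are shared with Actr3.

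**Figure D1:**
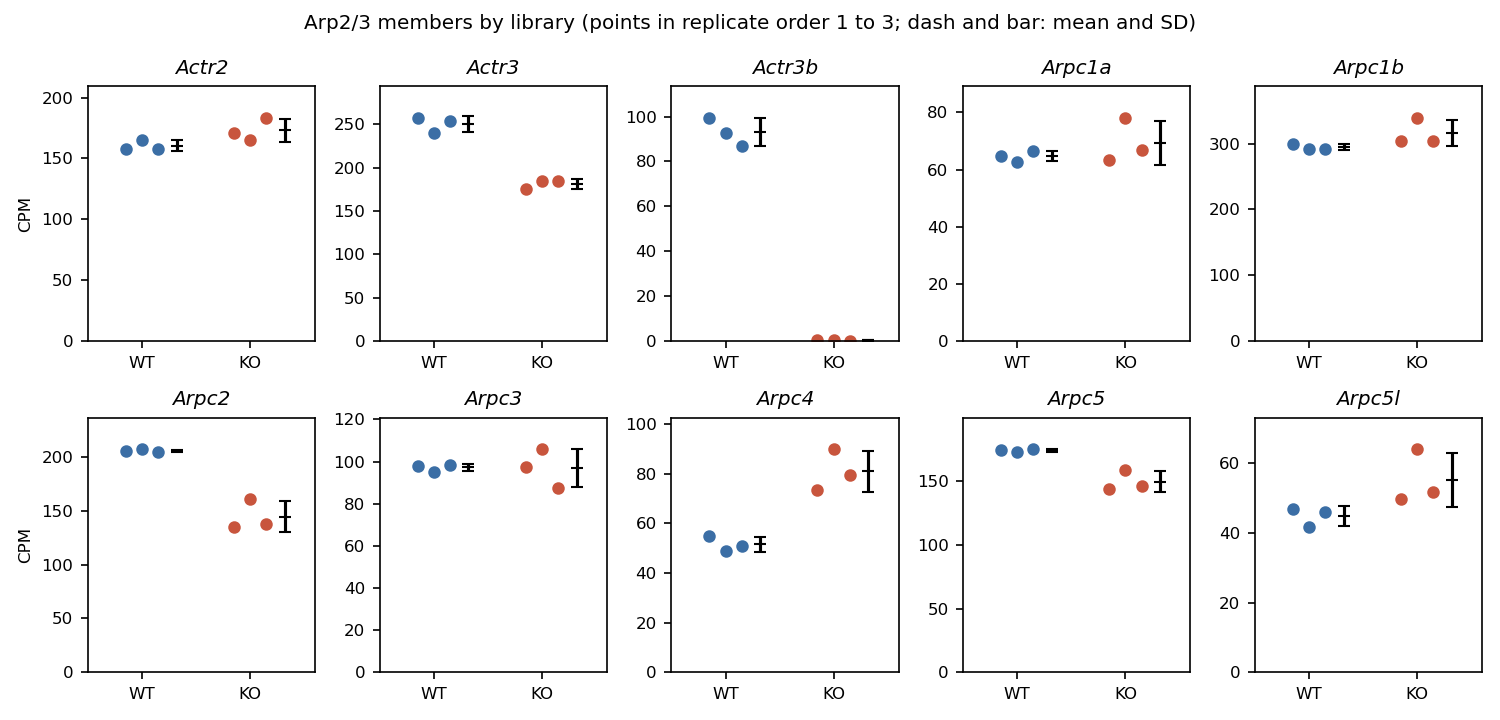
Level of each Arp2/3 member in CPM (vertical axis, starting at 0) in the 3 wild-type (blue) and 3 knockout (red) libraries, with the mean and SD beside each group. Actr3b is near 0 in all knockout libraries, and Actr3, Arpc2 and Arpc5 are lower without overlap. Arpc4, Arpc5l and, narrowly, Arpc1b are higher without overlap.

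Levels per transcript length (FPKM, read fragments scaled by transcript length and library total) allow the paralogues to be compared with each other. Actr3b made up 28.4%, 28.4% and 26.0% of the Arp3 transcripts in wild-type replicates 1, 2 and 3. In knockout replicates 1, 2 and 3 its share was 0.128%, 0.122% and 0.0944%. Actr3 and Actr3b together gave 126 ± 4.32 FPKM in wild type and 66.2 ± 2.05 FPKM in knockout (SD, n = 3 each), so the summed Arp3 level was 0.527 times that of wild type. Actr2, the single gene for Arp2, gave 43.4 ± 1.20 and 47.1 ± 2.25 FPKM. The summed Arp3 level was therefore 3.05, 2.72 and 2.92 times that of Actr2 in wild-type replicates 1, 2 and 3, and 1.37, 1.50 and 1.35 times in knockout replicates 1, 2 and 3. The ratio of Actr3 alone to Actr2 also differed without overlap, 2.10 ± 0.130 against 1.40 ± 0.0812. The lower Arp3 level thus had a part in each paralogue, the near absence of Actr3b and the lower Actr3.

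ARPC1 differed little. Arpc1b, the major ARPC1 gene in these cells, had 299, 292 and 292 CPM in wild-type replicates 1, 2 and 3 and 304, 339 and 304 CPM in knockout replicates 1, 2 and 3. Its lowest knockout library lay just above its highest wild-type library, and its log2 fold change of 0.10 ± 0.062 (SE) was not called. Arpc1a had 64.8, 62.8 and 66.5 CPM in wild-type replicates and 63.3, 78.1 and 66.8 CPM in knockout replicates. The groups overlapped, with a log2 fold change of 0.10 ± 0.082 and a 95% interval from −0.08 to 0.29. Arpc1a made up 17.7% ± 0.442 of the ARPC1 FPKM in wild type and 17.6% ± 0.742 in knockout (SD, n = 3 each). Arpc1a and Arpc1b lie next to each other on chromosome 5. Arpc1b shares 24.3% of its 50-base words, matched on either strand, with other genes, mostly with its neighbour Pdap1. How far its counts carry that uncertainty depends on the strand setting of the counting, which the sources used here do not give.

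At the ARPC5 place the minor gene had a larger share in knockout. Arpc5 stood at 174, 173 and 175 CPM in wild-type replicates 1, 2 and 3 and at 143, 159 and 146 CPM in knockout replicates 1, 2 and 3, without overlap and with a log2 fold change of −0.22 ± 0.059 (SE). Arpc5l stood at 46.8, 41.6 and 46.1 CPM in wild-type replicates and at 49.8, 63.9 and 51.7 CPM in knockout replicates, again without overlap, with 0.30 ± 0.10. The share of Arpc5l was 21.7%, 19.9% and 21.4% of the ARPC5 FPKM in wild-type replicates 1, 2 and 3 and 26.4%, 29.4% and 26.8% in knockout replicates 1, 2 and 3. The summed ARPC5 level overlapped between groups, at 116 ± 1.95 and 109 ± 9.07 FPKM (SD, n = 3 each). The call of Arpc5l was lost when wild-type replicate 1, 2 or 3 was left out, and without knockout replicate 2 its log2 fold change was 0.18.

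**Figure D2:**
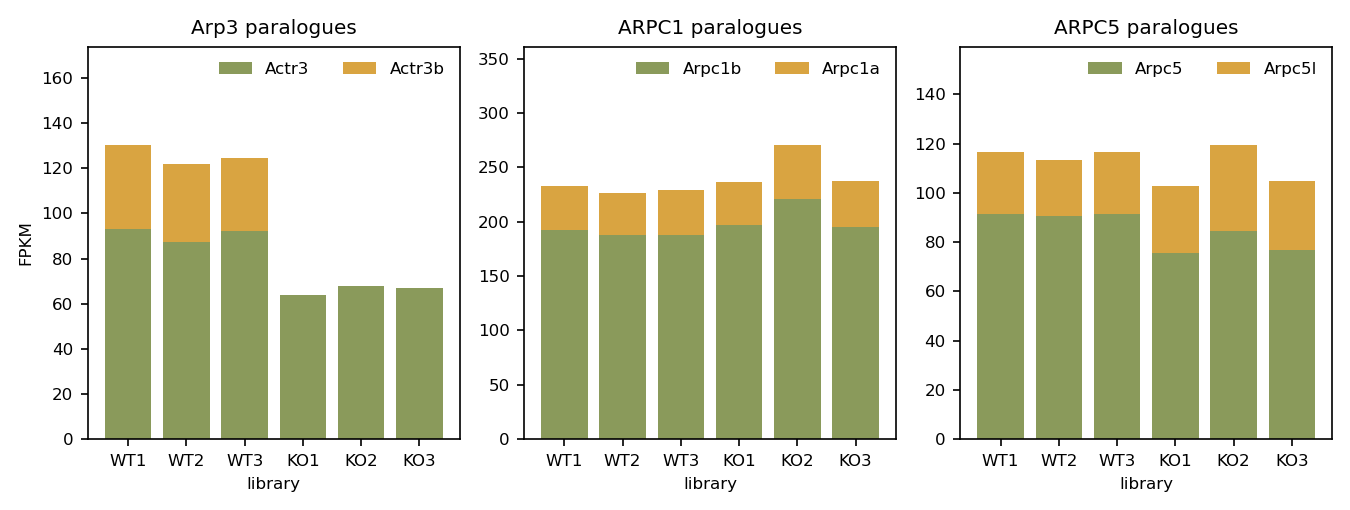
Stacked FPKM of the paralogue genes for each of the 3 places with 2 genes, in wild-type (WT1 to WT3) and knockout (KO1 to KO3) libraries, with the axes starting at 0. The mean summed Arp3 bar of knockout is 0.527 times that of wild type with no visible Actr3b, the Arpc1a share overlaps between groups, and Arpc5l takes a larger share of ARPC5.

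The subunits with 1 gene moved in both directions. Arpc2, which with ARPC4 forms the core that grips the mother filament, had 205, 207 and 204 CPM in wild-type replicates 1, 2 and 3 and 135, 161 and 138 CPM in knockout replicates 1, 2 and 3. It was lower without overlap, at 0.703 times the wild-type level, with a log2 fold change of −0.51 ± 0.074 (SE). Arpc4, its partner, went the other way. It had 54.9, 48.9 and 51.0 CPM in wild-type replicates and 73.5, 89.7 and 79.4 CPM in knockout replicates, higher without overlap and with a log2 fold change of 0.65 ± 0.084. The FPKM ratio of Arpc2 to Arpc4 was 6.30 ± 0.388 in wild type and 2.82 ± 0.0749 in knockout (SD, n = 3 each). Of the 2334 50-base words of Arpc4, 234 also occur in transcripts of Ttll3.

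Arpc3, which links Arp3 to the rest of the complex, had 98.0, 95.1 and 98.6 CPM in wild-type replicates 1, 2 and 3 and 97.5, 106 and 87.6 CPM in knockout replicates 1, 2 and 3. The knockout libraries lay on both sides of the wild-type ones, with a log2 fold change of −0.0038 ± 0.074 (SE) and a 95% interval from −0.17 to 0.16. Actr2 had 158, 165 and 158 CPM in wild-type replicates and 171, 165 and 183 CPM in knockout replicates, overlapping at the lower end in CPM and just separate in FPKM. Its log2 fold change of 0.11 ± 0.061, with an interval from −0.03 to 0.25, was not called with all libraries. Without knockout replicate 2 it was 0.14 and was called.

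In counts, 6 of the 10 members passed an adjusted p under 0.05 in the test over all genes, 4 lower and 2 higher in knockout. Of all 11972 genes, 59.6% passed, 29.2% lower and 30.5% higher, so the share of members is near the background and nothing is read from it. The groups did not overlap for 7 members, against 67.6% of all genes. The median log2 fold change was 0.05 over the members and 0.0028 over all genes tested. Apart from Actr3b, the largest change was 1.57-fold, in Arpc4.

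In wild type the order of levels per length ran from Arpc1b (189 ± 2.63 FPKM) through Arpc2 (142 ± 0.967), Arpc3 (107 ± 2.02), Arpc5 (91.2 ± 0.470), Actr3 (90.8 ± 3.21), Actr2 (43.4 ± 1.20), Arpc1a (40.6 ± 1.15), Actr3b (34.7 ± 2.33) and Arpc5l (24.3 ± 1.51) to Arpc4 (22.6 ± 1.31; SD, n = 3 each). The ranges of Arpc5 and Actr3 overlapped, as did those of Arpc5l and Arpc4, and all other neighbours in this order were separate. In knockout, Arpc3 (108 ± 10.8 FPKM) and Arpc2 (101 ± 10.4) overlapped, as did Actr2 and Arpc1a (43.9 ± 5.11), which were separate in wild type. Arpc4 (35.7 ± 3.80) overlapped Arpc5l (30.1 ± 4.36) and had the higher mean, and Actr3b stood last at 0.0757 ± 0.0109. With paralogues summed, the highest of the 7 places, ARPC1, exceeded the lowest, ARPC4, by 10.2 ± 0.449 times in wild type and 6.96 ± 0.291 times in knockout. Transcript levels for the places of this complex thus differed several-fold within a library. The single length per gene behind FPKM does not account for differences in the isoforms used.

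Knockout replicate 2 was the highest knockout library for 9 of the 10 members, Actr2 being the exception. Arpc5l was higher in it than in the mean of replicates 1 and 3 by 0.33 on the log2 scale, Arpc1a by 0.26 and Arpc2 by 0.24. In that library short genes were higher in general: among genes averaging 5 CPM or more, the 2582 with the shortest transcripts differed by a median of 0.24 and the 2582 with the longest by −0.26. The derived lengths of the members run from 901 (Arpc3) to 3684 bases (Actr2), beside medians of 1579 bases among those shortest genes and 8228 among the longest. The spread of Arpc2 was 9.83% of the mean in knockout and 0.629% in wild type, whereas that of Actr3 was 2.99% in knockout and slightly wider in wild type. The part of transcript length and of the muscle transcripts in these values was not tested. Without knockout replicate 2, Arpc2 had a log2 fold change of −0.59, Actr3 of −0.48, Arpc5 of −0.26 and Arpc4 of 0.57, each still called.

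RefSeq order is that of assembly GRCm38.p6, used here for gene order only, since the submitters' processing notes name GRCm39. Among the genes with deposited counts, Actr3b on chromosome 5 lies between Xrcc2 and a run of predicted and Speer genes that ends before Paxip1. Xrcc2, a DNA repair gene, had 145, 155 and 149 counts in wild-type replicates 1, 2 and 3 and 197, 173 and 152 in knockout replicates 1, 2 and 3. Paxip1, at the other end, had 1382, 1294 and 1445 counts against 1478, 1354 and 1495. Neither flank was called, and counts of both were present in all libraries. Between Actr3b and Paxip1 the tables hold 13 genes. Their counts summed to 793 over the wild-type libraries and 1 over the knockout libraries, and 12 of them had 0 in all knockout libraries. Summed over the wild-type libraries, the single genes had 1 to 297 counts, so a 0 in knockout says little for the lowest. RefSeq lists 32 genes from Xrcc2 to Paxip1, of which 16 have counts deposited.

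Of these 13 genes, 3 were abundant enough to be tested, and all had 0 counts in each knockout library. Gm7361 had 118, 91 and 88 counts in wild-type replicates 1, 2 and 3. Gm21680 had 93, 89 and 69, and Gm10471 had 27, 26 and 18. Against a floor of 3 counts over the knockout group, they were at least 105-fold, 88.8-fold and 25.1-fold lower in knockout. These genes belong to a group of similar copies and share 40.0% (Gm7361), 88.8% (Gm21680) and 48.1% (Gm10471) of their 50-base words with other genes, so the counts of each single copy are uncertain. Which lesion, if any, the knockout cells carry here was not tested, because the files hold no reads.

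**Figure D3:**
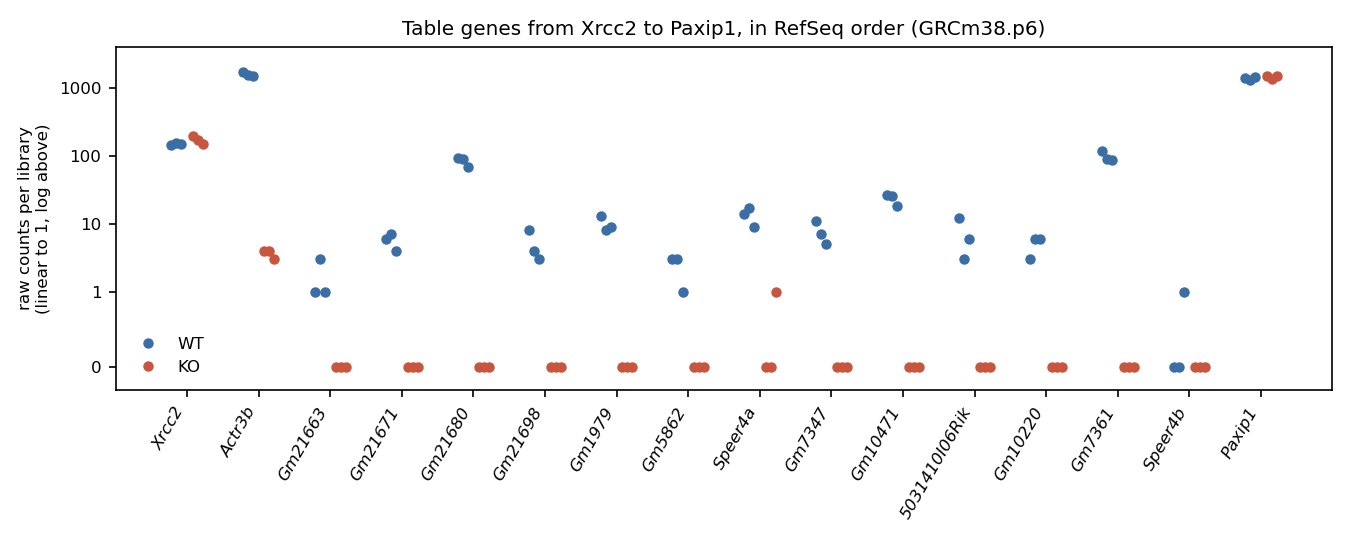
Raw counts per library (vertical axis, linear up to 1 and logarithmic above) for the 16 table genes from Xrcc2 to Paxip1 in RefSeq order, wild type in blue and knockout in red. Actr3b has 3 or 4 counts per knockout library, the 13 genes after it total 1 knockout count, and Xrcc2 and Paxip1 have counts in all libraries.

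The other tested neighbours of Actr3b moved in both directions. On its far side, Rheb had a log2 fold change of −0.56 ± 0.074 (SE), Prkag2 of −0.31 ± 0.098 and Kmt2c of −0.63 ± 0.23, all called lower. Kmt2c varied widely in knockout, at 85.3 ± 30.7 CPM against 132 ± 6.79 CPM in wild type (SD, n = 3 each). Galnt11, on that side too, was not called, at 0.17 ± 0.067 (SE). Beyond Paxip1, Insig1 rose from 82.4 to 145 CPM. A fold of 2 or more with a call, found for 10.9% of all genes tested, was met by Gm21680, Gm10471 and Gm7361 among the 10 tested neighbours. These similar copies were abundant enough to be tested only through their wild-type counts, so nothing is read from this share.

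The 5 genes whose pattern over the 6 libraries was most like that of Actr3b were Pcdh7, Bnc1, Ndn, Gfra2 and Serpine2, by the distance between centred log2 CPM values among 10328 genes averaging 5 CPM or more. Pcdh7, a protocadherin, went from 523 ± 8.17 to 1.43 ± 0.392 CPM at a distance of 0.746. Serpine2, a secreted protease inhibitor, went from 107 ± 2.61 to 0.128 ± 0.0825 CPM at a distance of 0.961 (SD, n = 3 each). Bnc1, Ndn and Gfra2 had distances of 0.816, 0.863 and 0.884. They lie on chromosome 5 (Pcdh7), 7 (Bnc1 and Ndn), 14 (Gfra2) and 1 (Serpine2). Near loss of a transcript in knockout was thus not limited to Actr3b and the genes next to it.

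Genes on the chromosome of a member differed the same way as the member for some members and not for others. Chromosome 1 holds Actr3, Arpc2 and Arpc5, all 3 of which were lower. Among the 20 chromosomes with at least 100 tested genes it had the lowest median log2 fold change, −0.49 over 689 genes, with 71.7% called lower and 5.66% higher. Relative to that median, Actr3 differed by 0.02, Arpc2 by −0.02 and Arpc5 by 0.27. Arpc4 lies on chromosome 6, with a median of 0.16 over 565 genes, and exceeded it by 0.49. Arpc5l lies on chromosome 2, with a median of 0.19, and exceeded it by 0.10. On chromosome 5, with a median of −0.08 over 758 genes, Arpc1a and Arpc1b had the opposite sign, at 0.10 each and not called. Arpc3, on that chromosome too, stood at −0.0038 and Actr3b at −8.80. Actr2, at 0.11 and not called, lies on chromosome 11, with a median of 0.20. The part of chromosome-wide differences in the members' values was not tested.

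**Figure D4:**
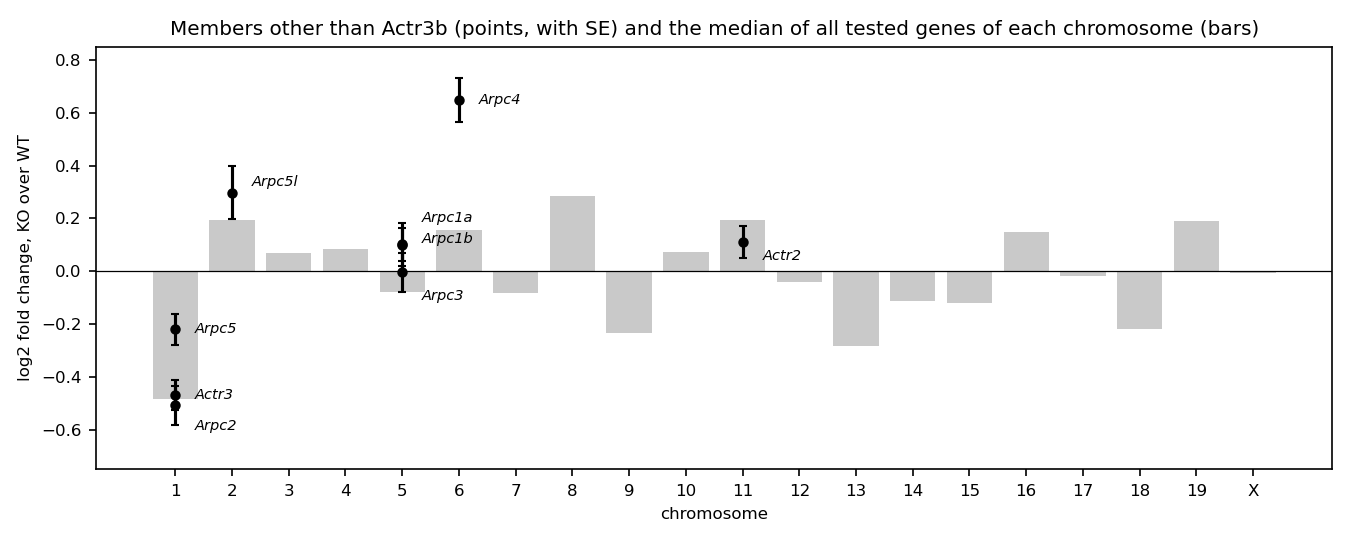
Median log2 fold change (knockout minus wild type) of the tested genes on each chromosome, drawn as bars, with the members other than Actr3b as points with their SE. Chromosome 1 has the lowest median, −0.49, and Actr3 and Arpc2 lie close to it, whereas Arpc4 lies above the median of chromosome 6.

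Counts among close neighbours of the members other than Actr3b were as follows. Of the 10 nearest tested genes of Actr3, 5 on each side, 8 were called lower and 1 higher. Around Arpc2 the counts were 7 and 0, and around Arpc5 they were 7 and 1. Around Arpc4, 8 were called higher and 0 lower, with a median log2 fold change of 0.46. Around Arpc3, which was not called, 5 were lower and 0 higher. Around Actr2, 2 were higher and 3 lower, and around Arpc5l, 4 were higher and 2 lower. Arpc1a and Arpc1b each had 1 neighbour called higher and 2 called lower. These counts stand beside 30.5% higher and 29.2% lower over all tested genes. On chromosome 1, the chromosome of Actr3, Arpc2 and Arpc5, 5.66% were higher and 71.7% lower. On chromosome 6 the shares were 42.7% higher and 21.8% lower, and on chromosome 5 they were 16.4% higher and 31.7% lower. On chromosome 2 they were 45.7% higher and 11.5% lower, and on chromosome 11 they were 45.4% higher and 12.3% lower. Neighbours called at 2-fold or more were Slc1a4 (Actr2), Nckap5 and Mgat5 (Actr3), Baiap2l1 (Arpc1a and Arpc1b), Tmem169 and Slc11a1 (Arpc2), P2rx7 (Arpc3), Rpusd3 and Il17rc (Arpc4) and Zeb2 (Arpc5l). Of these, P2rx7 fell from 7.97 to 0.936 CPM and Il17rc rose from 45.4 to 92.0 CPM. Low levels were seen for Nckap5 (2.89 to 0.0181 CPM), Tmem169 (3.51 to 0.954), Slc11a1 (1.25 to 0.511) and Rpusd3 (1.73 to 3.87). Neighbours were named without a minimum level, and Nckap5 could be tested only through its wild-type counts.

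The promoters of the 3 members with the largest differences after Actr3b for which an entry was matched are shown because they include both directions. RefSeq (GRCm38.p6) gave an entry for 8 of the 10 members, without Actr3b and Arpc5l. The 120 bases before the start are printed 5′ to 3′ on the gene's strand, with GGAAGT in capitals. These letters contain GGAA, the core of ETS-family sites, and GGAA elsewhere is not marked. The windows are chr1:125435728-125435847 on the minus strand (Actr3), chr1:74236397-74236516 on the plus strand (Arpc2) and chr6:113377993-113378112 on the plus strand (Arpc4).
Actr3: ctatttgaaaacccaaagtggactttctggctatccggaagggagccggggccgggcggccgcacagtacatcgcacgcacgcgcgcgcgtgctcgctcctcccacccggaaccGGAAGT
Arpc2: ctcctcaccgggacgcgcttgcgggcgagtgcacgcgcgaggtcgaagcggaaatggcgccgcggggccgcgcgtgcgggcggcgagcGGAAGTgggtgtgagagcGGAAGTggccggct
Arpc4: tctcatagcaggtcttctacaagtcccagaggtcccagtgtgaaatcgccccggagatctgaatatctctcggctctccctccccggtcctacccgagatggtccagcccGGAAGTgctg

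GGAAGT, searched on both strands in the 250 bases before the start, was present for Arpc2, Actr3, Arpc3, Arpc1a and Arpc4, 5 of the 8 members with an entry. It was present for 23.35% of the 9551 tested genes with an entry. The motif was chosen after the sequences were seen, and a match describes letters, not a bound site. It occurred in members that were lower, higher and not called.

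Genes that act on the complex or beside it were taken from 8 lists with 88 entries, of which 69 were tested. In edgeR's quasi-likelihood test, adjusted over all genes, 27 were higher and 23 lower in knockout, with a median log2 fold change of 0.10. That is 72.5% called, beside 59.6% of all genes (30.5% higher and 29.2% lower). The lists were chosen with earlier results of these data known, so nothing is read from this share. The calls below and the counts per list are descriptions.

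Among the activators, Wipf1, which binds and protects WASP proteins, fell from 140 ± 2.14 to 95.1 ± 4.34 CPM (SD, n = 3 each; edgeR adjusted p = 4.63e-05). It was the 1 gene called among 3 tested of the WASP list. Wasl, the N-WASP gene, had a log2 fold change of −0.10 ± 0.067 (SE; edgeR adjusted p = 0.221). Of the WAVE complex, 4 of 10 tested genes were higher and 4 lower. The lower ones include Nckap1l (1.99 to 0.147 CPM) and Cyfip2 (0.918 to 0.166 CPM), both at low levels. Wasf3, a WAVE gene, rose from 27.5 ± 1.06 to 49.9 ± 9.49 CPM, and Brk1, its small subunit, rose from 92.8 to 125 CPM. Wasf1, another WAVE gene, rose from 15.8 to 18.5 CPM, and Abi2, a further subunit, fell from 43.4 to 28.4 CPM. Wasf2 and Nckap1 were not called, at −0.06 and −0.03 on the log2 scale. Of WASH, WHAMM and JMY, 3 of 7 fell and 1 rose. Whamm and Jmy, which drive branching at internal membranes and in the cytoplasm, fell by 0.89 and 0.77 on the log2 scale (edgeR adjusted p = 1.70e-05 and 5.10e-05). In the WASH complex, which acts on endosomes, Washc4 fell from 156 to 128 CPM and Washc2 rose from 183 to 217 CPM.

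Upstream GTPases and adaptors had 5 higher and 3 lower of 11 tested. Baiap2, the adaptor between Rac and WAVE, rose from 75.9 to 98.8 CPM, Rhog rose from 34.1 to 44.3 CPM, Nckipsd rose from 17.3 to 23.0 CPM, and Nck2 fell from 19.8 to 13.9 CPM. Among stabilisers, inhibitors and debranching factors, 5 of 11 rose and 2 fell. Dstn, which severs filaments, rose from 144 ± 6.84 to 264 ± 16.1 CPM, with all 3 knockout libraries above all 3 wild-type ones (edgeR adjusted p = 7.80e-06). The other cofilins, Cfl2 and Cfl1, had log2 fold changes of 0.46 and 0.39, both called, and Gmfb, a debranching factor, 0.36. Cttn, which stabilises branches, and Arpin, an inhibitor of the complex, were not called, at 0.10 ± 0.052 and 0.01 ± 0.070 (SE).

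Nucleators that work without the Arp2/3 complex differed in both directions. Of 17 tested, 9 fell and 5 rose. Spire1, a nucleator of unbranched filaments, had 91.6, 89.3 and 88.4 CPM in wild-type replicates 1, 2 and 3 and 19.3, 19.4 and 20.4 CPM in knockout replicates 1, 2 and 3 (log2 fold change −2.19, edgeR adjusted p = 2.34e-08). Its paralogue Spire2 rose from 9.95 ± 0.552 to 20.7 ± 1.23 CPM (edgeR adjusted p = 1.45e-05). The formin Daam2 and Enah, which elongates filaments, fell by 0.94 and 0.84 on the log2 scale. All 3 tested actin genes rose. Actg1, cytoplasmic gamma actin, went from 474 ± 20.8 to 1122 ± 69.9 CPM (edgeR adjusted p = 9.45e-07). Actb went from 1200 ± 40.8 to 1565 ± 67.8 CPM, and Acta2 from 59.5 to 86.8 CPM. Actin genes have near-identical copies, so their counts are uncertain. Of the other actin-related proteins, 4 of 7 rose and 1 fell, among them Actr8, of a chromatin remodelling complex (42.7 to 71.3 CPM), and Actr1a, of dynactin (136 to 195 CPM). Actr5 rose from 12.9 to 17.5 CPM, and Actr1b, also of dynactin, fell from 133 to 115 CPM.

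**Figure D5:**
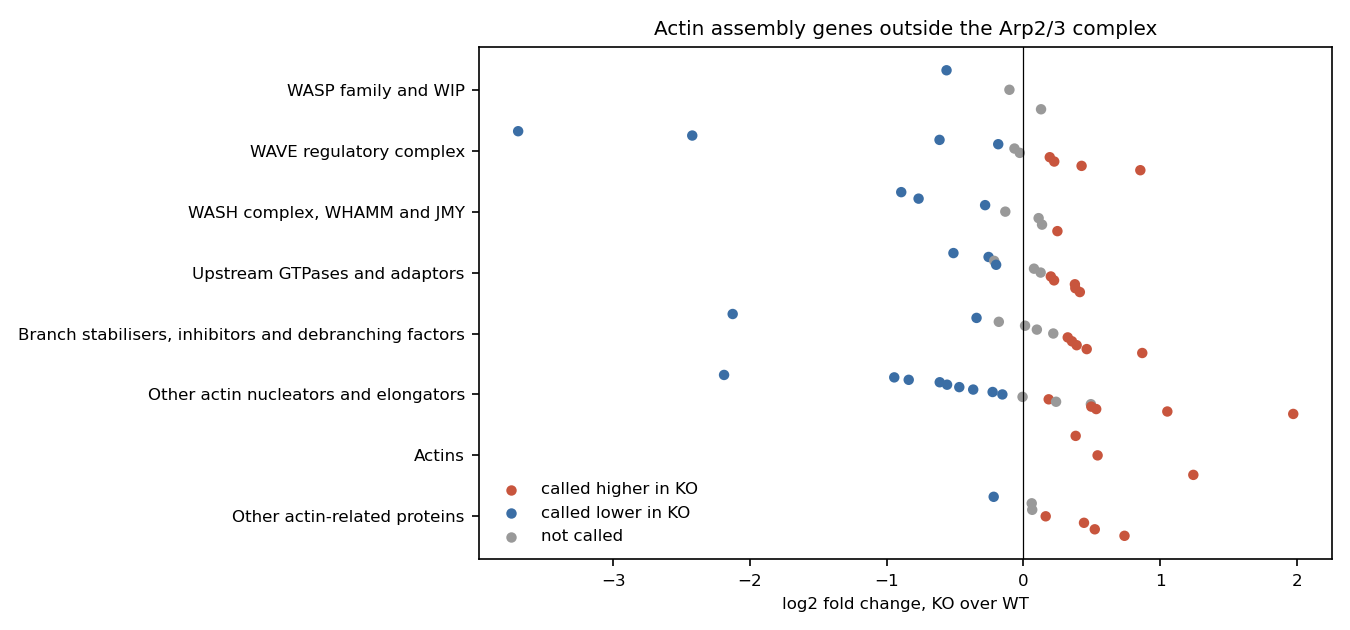
Log2 fold changes (knockout minus wild type) of the tested actin assembly genes in the 8 lists outside the complex, 1 point per gene, red for called higher, blue for called lower and grey for not called. Most points lie within 1 log2 unit of 0, Spire1 lies at −2.19 and Actg1 at 1.24. The point farthest out is Nckap1l at −3.70 on the lower side and Fhod3 at 1.98 on the higher side. These genes, Cyfip2 (−2.42) and Coro2a (−2.13) average 0.537 to 1.24 CPM over the 6 libraries.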

How the data were processed

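RNA of 3 wild-type and 3 Rai16 knockout NIH3T3 libraries was compared. The authors deposited whole-number counts per gene and FPKM values. The submitters' processing notes name Trimmomatic, HISAT2, Cufflinks, HTSeq, DESeq and the build GRCm39. For the strand setting and annotation release, the sources used here give nothing. The deposited FPKM values equal the counts scaled by total and 1 length per gene, to within 0.000763%, so both tables hold the same measurement. Library totals were 16741607 to 18368760 counts.

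Counts were tested with edgeR 4.0.16 in R 4.3.3 (filterByExpr, TMM, quasi-likelihood test, Benjamini-Hochberg adjustment over 11972 genes), and a gene was called at an adjusted p under 0.05. SEs come from the fold change and its F value. Members and lists were chosen with earlier results of these data known. In each list, the 4 largest changes among called genes averaging 5 CPM or more were named, with neighbours called at 2-fold or more and the 5 genes most like Actr3b. Wasl, Wasf2, Nckap1, Nckap1l, Cyfip2, Fhod3, Coro2a, Cttn, Arpin, Rheb, Prkag2, Kmt2c, Galnt11, Insig1, Ckm and Map2 were named after their values were seen. Alternatives were RLE scaling, library totals, no filter, DESeq2 1.42.0, a replicate block, raw count shares and each replicate left out. RefSeq (GRCm38.p6) gave names and gene order for 11941 tested genes, and GENCODE M21 transcripts gave shared 50-base words, matched on either strand.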

Additional observations from a re-analysis of the deposited data

How the results depend on the processing

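The number of members called lower was 4 under all alternatives run. The number called higher, 2 with all libraries, was 1 with a replicate block (Arpc5l, 0.29, not called) and ranged from 1 to 3 when a replicate was left out: 1 without wild-type replicate 1, 2 or 3 (Arpc5l not called) and 3 without knockout replicate 2 (Actr2 added). Over the alternatives, the log2 fold change ranged from −8.86 to −8.69 for Actr3b, −0.50 to −0.44 for Actr3, −0.59 to −0.46 for Arpc2, 0.57 to 0.71 for Arpc4 and 0.18 to 0.37 for Arpc5l. The direction of Arpc3, −0.0038 with all libraries, turned to 0.0081 with library totals only, 7.385e-05 without a filter, 0.0010 without wild-type replicate 1, 0.0050 without wild-type replicate 3 and 0.0657 without knockout replicate 3, and ranged from −0.0693 to 0.0657 when a replicate was left out, all uncalled. The cause was not tested. Outside the complex, 21 to 32 listed genes were called higher and 17 to 25 lower. Same-numbered libraries did not deviate together (r of −0.0725, −0.0938 and 0.0221 for numbers 1, 2 and 3), and the replicate block gave 6692 calls over all genes against 7136. Depth limits Actr3b in knockout, where 3 or 4 counts per library fix its level only within the counting interval given.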
